A study of Xenopus laevis with 35 samples.

Results

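The genes described here are ldha.L and ldhb.S, which encode the A and B subunits of lactate dehydrogenase, and gapdh.S, which encodes glyceraldehyde 3-phosphate dehydrogenase of glycolysis. They are 3 of the 243 genes that the probe annotation names among the 449 probes of a small array, and each is read by 1 probe in a pair of neighbouring spots. The probes were found by their annotated symbols, under which the array's own names ldha1, ldh2 and gapd had been updated. The set was chosen by measured values, with earlier results of these data in view: ldha.L and gapdh.S were higher with PTU averaged over the exposure times, and ldha.L was higher with PTU and PER at 96 h. Those differences used the control arrays, so ldha.L and gapdh.S are described without a test wherever they are set against a control. Counts of calls over the list of glycolytic genes include them and are not read as tests of them. Tests are given for ldhb.S, for the other glycolytic genes on the array and for ldha.L over time within MMI.

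Brains came from Xenopus laevis tadpoles of NF stage 54 (in the staging of Nieuwkoop and Faber), when metamorphosis has begun. Control tadpoles received no chemical, and the exposed ones lived continuously in water with 100 mg/L of MMI, 20 mg/L of PTU or 4 mg/L of PER until brains were taken at 24, 48 and 96 h. As background, MMI is methimazole and PTU is propylthiouracil, thionamides that inhibit thyroid peroxidase, and PER is perchlorate, which blocks iodide uptake by the thyroid. Each of the 12 groups of treatment and time had 3 arrays, except PER at 24 h with 2, and per the labels' protocols 10 tadpoles, 5 from each of 2 tanks, were sampled per treatment and time and 3 separate RNA pools were made. An array therefore stands for a pool, and tanks are not told apart. No strain, genotype or sex is given, and no array measured hormone, lactate or enzyme activity.

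Glycolysis splits glucose into pyruvate. Gapdh carries out its oxidative step and needs NAD+ as the electron acceptor, and lactate dehydrogenase regenerates NAD+ by reducing pyruvate to lactate. The enzyme is a tetramer of A and B subunits in any mixture, and in vertebrates the A-rich forms are typical of tissues that make lactate and the B-rich forms of tissues that oxidise it. In the mammalian brain astrocytes are known for lactate release and neurons for lactate use. X. laevis is an allotetraploid frog, and .L and .S name the gene copies on its long and short subgenomes. Whether a probe also binds the other copy was not tested.

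Values are background-subtracted intensities, on a linear scale, after each array was scaled by the median of 18 probes that were above background on all 35 arrays. One of the 18 is the ldhb.S probe, and leaving it out of the scaling changed its mean differences from control by less than 0.1 on the log2 scale. Differences are on a log2 scale of the scaled intensity plus an offset of 67.5, and adjusted p-values are from limma with the Benjamini-Hochberg method over all probes tested. A probe counts as above background where it exceeds 2 background SDs of its array. The intensities of different probes cannot be set against each other, so only changes between samples are read. Whether the arrays of a pair of groups overlap is given as description only. The share of all probes whose groups separate was not counted, and the percentages of probes called do not measure it.

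The arrays were not equally precise. The background SD had a median of 1009 intensity units on control arrays against 647 with MMI, 589 with PTU and 318 with PER. The limit for above background was therefore mostly higher on control arrays, and counts of arrays above it are not at a like signal between treatments. The 3 control arrays of 96 h correlated with each other over the brighter probes at 0.416 to 0.565, while arrays of the exposed groups correlated within their groups at 0.767 to 0.941. Replicate 1 of PER at 24 h and replicate 3 of PER at 48 h were almost the same array (r = 0.9999), their scaled probes differing by a median of 6.4e-05 on the log2 scale against 0.232 for the next closest pair of arrays. They may be 1 sample under a pair of labels, so the main PER values of ldha.L, ldhb.S and gapdh.S are also given below without both. For the markers and reference genes PER values are given only with both. Counts of PER arrays, SEs and p-values include both unless stated. The labelled tissue could be checked on few probes: gap43.S, a growth-cone protein of neurons, was above background on 34 of 35 arrays, mbp.S, the myelin basic protein, on 30 of 34 and msi1.S, an RNA-binding protein of neural stem cells, on 27 of 33. Single markers of red blood cells (hbd.S), gut (fabp2.L) and photoreceptors (crx.L) were above background on 7 of 29, 6 of 35 and 4 of 35 arrays, and the muscle regulators myf6.L and myf5.L on 6 of 34 and 1 of 35. As brain is a mixture of cells, fewer cells of a type and less RNA per cell cannot be told apart.

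Of the 3 genes, gapdh.S gave by far the steadiest measurement. Its paired spots differed by a median of 1.06-fold and at most 1.34-fold, and its probe ranked among the 5 brightest on 31 of the 32 arrays that have a value. Both ldha.L and ldhb.S were dimmer, with a median rank of 60 and 55, and their paired spots differed by a median of 1.23-fold and 1.18-fold and by up to 6.60-fold and 3.00-fold. On control arrays alone the paired ldha.L spots differed by a median of 1.53-fold, and they lay within 1.5-fold of each other on 4 of 9 control arrays, 8 of 9 MMI arrays, 7 of 9 PTU arrays and 6 of 8 PER arrays. The ldha.L probe was above background on 30 of 35 arrays, ldhb.S on all 35 and gapdh.S on all 32 with a value.

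**Figure D1:**
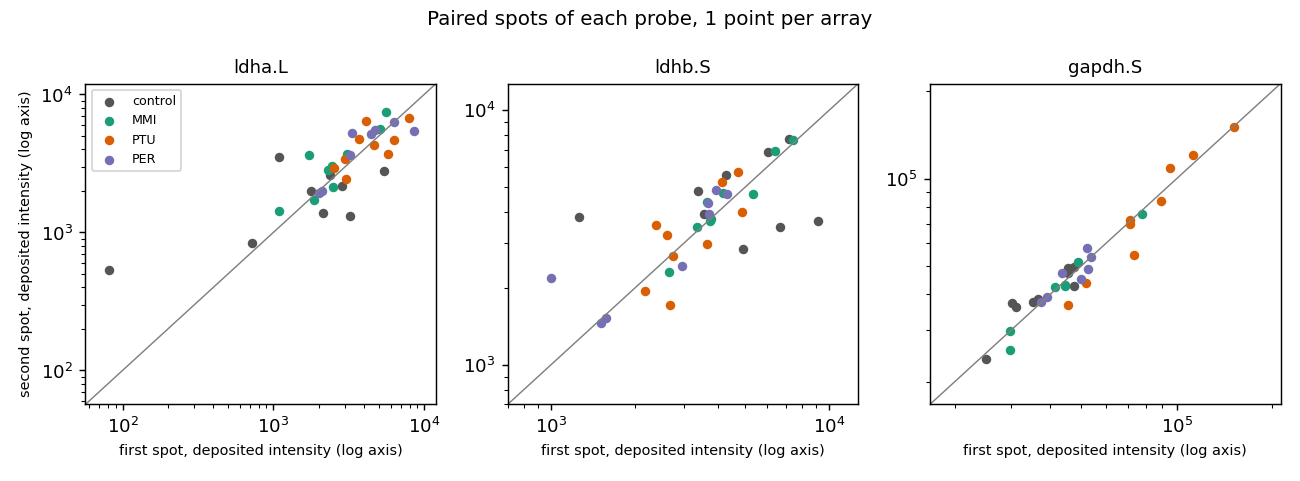
Deposited intensity of the second spot of each probe (log axis) against that of its first spot (log axis), 1 point per array, for ldha.L, ldhb.S and gapdh.S, with the line of equality. The gapdh.S points follow the line within 1.34-fold, while control arrays of ldha.L lie up to 6.60-fold from it.

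In control brains ldha.L had a scaled intensity of 5054, 2716 and 2514 at 24 h, 1800, 1948 and 2220 at 48 h, and 286, 784 and 1821 at 96 h. The group mean was thus lower at each later time. The 96 h arrays did not overlap those of 24 h but did overlap those of 48 h. Of these arrays 2 of 3 were above background at 24 h, 2 of 3 at 48 h and 0 of 3 at 96 h. The fitted difference between 96 and 24 h was -2.01 (SE 0.55), and because ldha.L was not above background on any 96 h control array, the fold is given as a bound, at least 1.54-fold lower at 96 h. Without control 96 h replicate 1, the dimmest array for this gene, the difference was -1.14. The brighter probes of the array, those above background on at least 18 arrays, also fell between 24 and 96 h in controls. Their median difference was -0.85, and 5.41% of all probes were called there (limma). Between 48 and 96 h the bound was 0.935-fold, so it does not establish a fall over that step. No test is attached, since these arrays entered the differences by which the gene was chosen.

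In MMI-exposed brains the ldha.L intensities were 2556, 3290 and 3631 at 24 h, 2386, 4903 and 3525 at 48 h, and 1995, 2338 and 3642 at 96 h. All 9 arrays were above background, and the difference between 96 and 24 h was -0.27 (SE 0.55, adjusted p = 0.897, with 0.226% of all probes called). In PTU-exposed brains the intensities were 3575, 3414 and 3394 at 24 h, 3057, 3657 and 3771 at 48 h, and 6759, 4020 and 5590 at 96 h, so that the 3 highest values were all of 96 h. In PER-exposed brains they were 2215 and 3112 at 24 h, 4430, 6881 and 2215 at 48 h, and 4375, 4447 and 6396 at 96 h. Within PTU and PER the 96 h level exceeded that of 24 h by 0.62 (SE 0.54) and 0.91 (SE 0.61) on the log2 scale, opposite in sign to the controls, and 1.38% and 0% of all probes were called there. Without both copies of the shared array the difference within PER was 0.67.

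**Figure D2:**
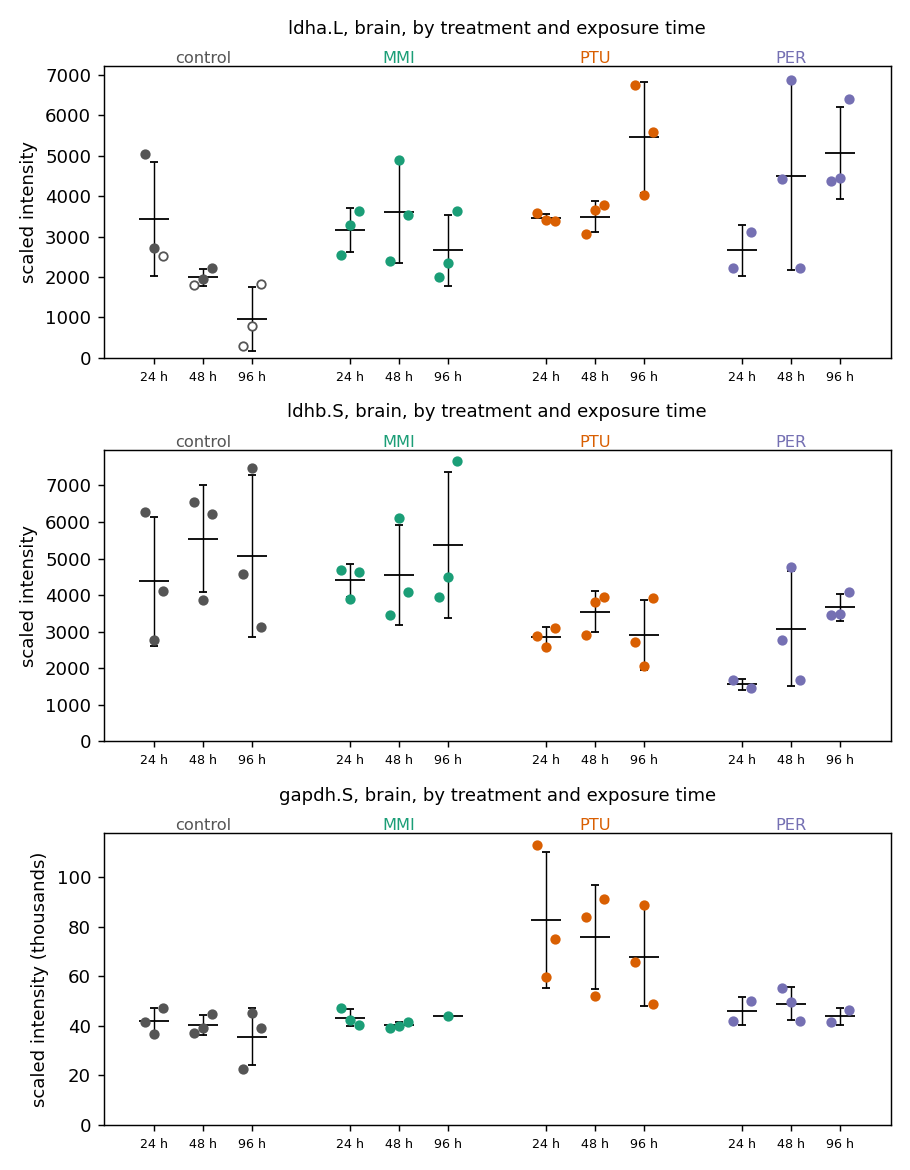
Scaled intensity of ldha.L, ldhb.S and gapdh.S by treatment and exposure time. Each point is 1 array (filled where above background, open where not), the line is the group mean and the bar the SD. The 5 open points are all ldha.L in controls, gapdh.S is high in the PTU groups, and 3 arrays have no gapdh.S value.

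Set against the control of the same time, the ldha.L arrays of every compound overlapped the controls at 24 h. The log2 difference was -0.06 (SE 0.55) with MMI, 0.08 (SE 0.55) with PTU and -0.30 (SE 0.61) with PER. These values near 0 depend on the scaling: they were 1.26, 1.25 and 0.66 with arrays centred on the median of all probes and 1.06, 1.04 and 0.87 with quantile normalization. At 48 h all 3 arrays of each compound lay above the control mean, by 0.78 (SE 0.55) with MMI, 0.79 (SE 0.55) with PTU and 1.02 (SE 0.55) with PER. The MMI and PTU arrays of 48 h did not overlap the controls, whereas PER 48 h replicate 3, one of the nearly identical arrays, fell below the highest control. At 24 h 0.903%, 1.6% and 0% of all probes were called with MMI, PTU and PER, and at 48 h 0 were called with any compound (limma), although 22, 36 and 28 had an unadjusted p under 0.05. Without both copies of the shared array the PER difference at 48 h was 1.45.

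At 96 h the ldha.L level was higher with every compound than on the 3 control arrays, with no overlap. How many of all probes separated in this way was not counted. The difference was 1.67 (SE 0.55) with MMI, where 4.74% of all probes were called. It was 2.71 (SE 0.55) with PTU and 2.61 (SE 0.55) with PER, differences that chose the gene, where 1.14% and 1.36% of probes were called. As folds these are bounds: at least 1.21-fold higher with MMI, 2.52-fold with PTU and 2.36-fold with PER. All 3 compounds are compared with the same 3 control arrays, which were lower for ldha.L than the controls of 24 h, while the PTU and PER arrays of 96 h were not lower than those of 24 h. The brighter probes of the array, those above background on at least 18 arrays, also moved at 96 h, their median difference from control being 0.88 with MMI, 0.33 with PTU and 0.56 with PER. Without control 96 h replicate 1 the ldha.L differences were 0.70, 1.86 and 1.74, and without control 96 h replicate 3, the brightest of them, they were 2.11, 3.16 and 3.07.

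Values of 3 markers of brain cells were read beside these differences. The neuronal gap43.S differed at 96 h by 1.74 with MMI (adjusted p = 0.144), 2.09 with PTU (adjusted p = 0.115) and 2.06 with PER (adjusted p = 0.15). Those values were 0.18, 0.66 and 0.59 without control 96 h replicate 1. Of the 2 markers of glia and neural stem cells, msi1.S rose with every compound averaged over the times, by 2.62 with MMI (adjusted p = 0.0396), 2.55 with PTU (adjusted p = 0.021) and 2.78 with PER (adjusted p = 0.0261). With that array left out these were 1.59, 1.57 and 1.78 and none passed (adjusted p = 0.268, 0.148 and 0.173). With each array left out in turn, the msi1.S averages passed in 18 of 35 fits with MMI, 32 with PTU and 25 with PER. At 96 h itself msi1.S overlapped the controls and was not called. It differed there by 2.569 with MMI, 2.575 with PTU and 2.775 with PER (limma, adjusted p = 0.329, 0.42 and 0.415). Without control 96 h replicate 1 those 96 h differences changed sign, to -0.47, -0.34 and -0.17. The msi1.S probe was above background on 3 of 8 control arrays, against 8 of 9 with MMI, 9 of 9 with PTU and 7 of 7 with PER. That limit was mostly higher on control arrays. Its control values reached down to -1485 and those below 0 became 0, so its differences are not read as folds. The average differences of mbp.S were 0.79, 1.01 and 0.76, those at 96 h were 0.28, 1.94 and 1.41, and none was called. The summed intensity of this pair ran from 301.3 to 9757 on control arrays, 3016 to 16955 with MMI, 2705 to 25697 with PTU and 4743 to 15675 with PER. That of gap43.S, the 1 neuronal marker on the array, ran from 1084 to 20674, 13062 to 25250, 11442 to 28278 and 22169 to 38720. The part of these markers in the ldha.L differences was not tested.

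Between 24 and 96 h the difference from control grew in value, untested. The MMI effect on ldha.L at 96 h minus that at 24 h was 1.73 (SE 0.78), where 2.95% of probes were called, and the corresponding values with PTU and PER were 2.62 (SE 0.77) and 2.92 (SE 0.82), where 0.46% and 0.229% were called. They were 0.75, 1.79 and 2.07 without control 96 h replicate 1. The brighter probes had a median of 1.46 with MMI, 0.54 with PTU and 1.04 with PER for this same change. With MMI the ldha.L value was 0.66 with quantile normalization and 0.67 with arrays centred on the median of all probes. It was 2.54 with the first spot alone. Averaged over the 3 times, ldha.L differed from control by 0.80 with MMI (SE 0.32, higher in 8 of 9 arrays), by 1.19 with PTU (SE 0.31, 9 of 9) and by 1.11 with PER (SE 0.33, 6 of 8). At these averages 1.37%, 4.16% and 1.61% of all probes were called. Over 24 and 48 h alone the ldha.L differences were 0.36, 0.44 and 0.36, so most of each average came from 96 h. Without both copies of the shared array the PER average over the 3 times was 1.33, and its effect at 96 h minus that at 24 h was 2.67.

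**Figure D3:**
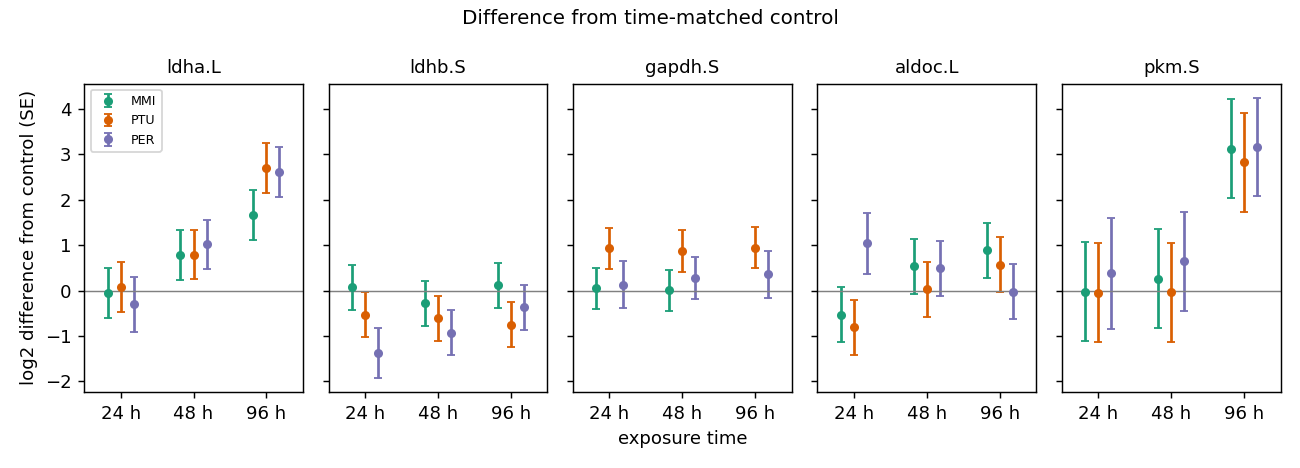
Log2 difference from the control of the same time for the 5 glycolytic probes of the array, by exposure time and compound, with 1 SE on each side. The ldha.L differences lie near 0 at 24 h and between 1.67 and 2.71 at 96 h, the ldhb.S differences are below 0 at each time with PTU and PER, and gapdh.S lies 0.87 to 0.94 above control with PTU at each time.

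For ldhb.S no difference from control was called with any compound. With the scaling used here, its averages over the times with PTU and PER were opposite in sign to those of ldha.L. With PER at 24 h both genes lay below the control. In controls ldhb.S had intensities of 6266, 2765 and 4106 at 24 h, 6536, 3856 and 6225 at 48 h, and 4582, 7480 and 3121 at 96 h. The difference between 96 and 24 h in controls was 0.19 (SE 0.50, adjusted p = 0.882), where 5.41% of probes were called. With MMI the intensities were 4699, 3887 and 4620, then 3467, 6103 and 4086, then 3958, 4493 and 7661, and they overlapped the controls at every time. The differences from control with MMI were 0.08, -0.28 and 0.11 at 24, 48 and 96 h, and -0.03 (SE 0.29, adjusted p = 0.983) averaged over the times, with a 95% interval from -0.62 to 0.57.

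With PTU the ldhb.S intensities were 2882, 2593 and 3113 at 24 h, 2897, 3799 and 3942 at 48 h, and 2722, 2062 and 3931 at 96 h. All 9 lay below the control mean of their time, but the groups overlapped at each time. The difference averaged -0.63 (SE 0.28, 95% interval -1.21 to -0.04, adjusted p = 0.289) and was -0.53, -0.61 and -0.75 at 24, 48 and 96 h. With PER the intensities were 1670 and 1453 at 24 h, 2782, 4780 and 1669 at 48 h, and 3445, 3476 and 4098 at 96 h. All 8, the nearly identical pair included, were below the control mean of their time, and the 24 h arrays did not overlap the controls. Such separation with PER at 24 h was not particular to ldhb.S. Every probe of the ribosomal protein gene rpl8.S, hbd.S, aldoc.L, crx.L and gap43.S separated there too. Those of ldha.L, gapdh.S, pkm.S, odc1.L, mbp.S, msi1.S, fabp2.L, myf5.L and myf6.L overlapped. The ldhb.S difference with PER was -1.38 (SE 0.55, adjusted p = 0.503, limma) at 24 h, -0.92 (SE 0.50, adjusted p = 0.754) at 48 h and -0.37 (SE 0.50, adjusted p = 0.777) at 96 h. It averaged -0.89 (SE 0.30, 95% interval -1.50 to -0.28, adjusted p = 0.151).

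Neither ldhb.S average passed the threshold over all probes. Where only probes above background on at least 9 arrays were tested, the PER average of -0.89 did pass (adjusted p = 0.0110), and where values below 0 were left out both did (adjusted p = 0.0068 with PER and 0.0354 with PTU). The size did not move with these settings, but it did with the scaling: with arrays centred on the median of all probes it was -0.14 with PER and 0.13 with PTU, and with quantile normalization -0.34 and -0.03. Those scalings raised the median change of the brighter probes to between 0.35 and 0.90, from 0.04 to 0.23 with the scaling used here. Without both copies of the shared array the PER average was -0.80 and the value at 48 h -0.56. The value at 24 h, which then rests on a lone PER array, was -1.47. Between 96 and 24 h within PER, ldhb.S differed by 1.20 (SE 0.55, adjusted p = 1), and 0% of probes were called.

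Read together on each array, ldha.L was higher relative to ldhb.S with PTU and PER than in controls. A factor that scales a whole array cancels from this ratio, apart from the offset. On 5 of the 9 control arrays, among them all 3 of 96 h, ldha.L was not above background, so the control ratios there are uncertain. In controls the log2 value of ldha.L minus that of ldhb.S averaged -0.34 ± 0.34 (SD, n = 3) at 24 h, -1.41 ± 0.43 at 48 h and -2.54 ± 1.57 at 96 h. With PTU it averaged 0.27 ± 0.14, -0.01 ± 0.08 and 0.91 ± 0.40, and with PER 0.73 ± 0.47 (n = 2), 0.52 ± 0.13 and 0.44 ± 0.17. All 8 PER arrays, the nearly identical pair counted as separate arrays, ran from 0.34 to 1.06. They lay above all 9 control arrays, which ranged from -3.72 to -0.02. Of the 9 PTU arrays 7 did so too, and the other two, of 48 h, lay at -0.05 and -0.06, just under the highest control. With MMI the balance was -0.48 ± 0.33, -0.35 ± 0.16 and -0.98 ± 0.07, and all its arrays lay within the range of the controls of all times together. Against controls of the same time, the MMI arrays of 48 h (-0.53 to -0.21) lay above all those of the control (-1.82 to -0.96). Those of 24 and 96 h overlapped their controls.

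Averaged over the 3 times, the ldha.L to ldhb.S ratio was higher than in controls by 0.83 with MMI, 1.82 with PTU and 2.00 with PER on the log2 scale. Over 24 and 48 h alone the differences were 0.46, 1.01 and 1.50, so with PTU and PER a shift of the ratio was also present before 96 h. The 2 genes contributed unequally: with PER at 24 h ldhb.S was low while ldha.L was near the control, and at 96 h ldha.L was high while ldhb.S was nearer the control. With PTU at 96 h both parts were present. Unlike the ratio, this split depends on the scaling. With arrays centred on the median of all probes, PER gave 0.66 for ldha.L at 24 h and 0.61 for ldhb.S at 96 h. At 24 h it also rests on 2 PER arrays, 1 of them from the nearly identical pair. Without control 96 h replicate 1 the differences were 0.64, 1.63 and 1.81, and without both copies of the shared array the PER value was 2.13. With ldha.L on the 96 h controls set to the lowest signal above background of each array, the differences were 0.36, 1.35 and 1.53 over the 3 times. They are bounds for the 96 h part only. Control arrays of 24 and 48 h on which ldha.L was not above background kept their values. The 8 PER arrays and 7 of the 9 PTU arrays still lay above all controls then. Because both genes entered with results known, these ratios carry no p-value.

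**Figure D4:**
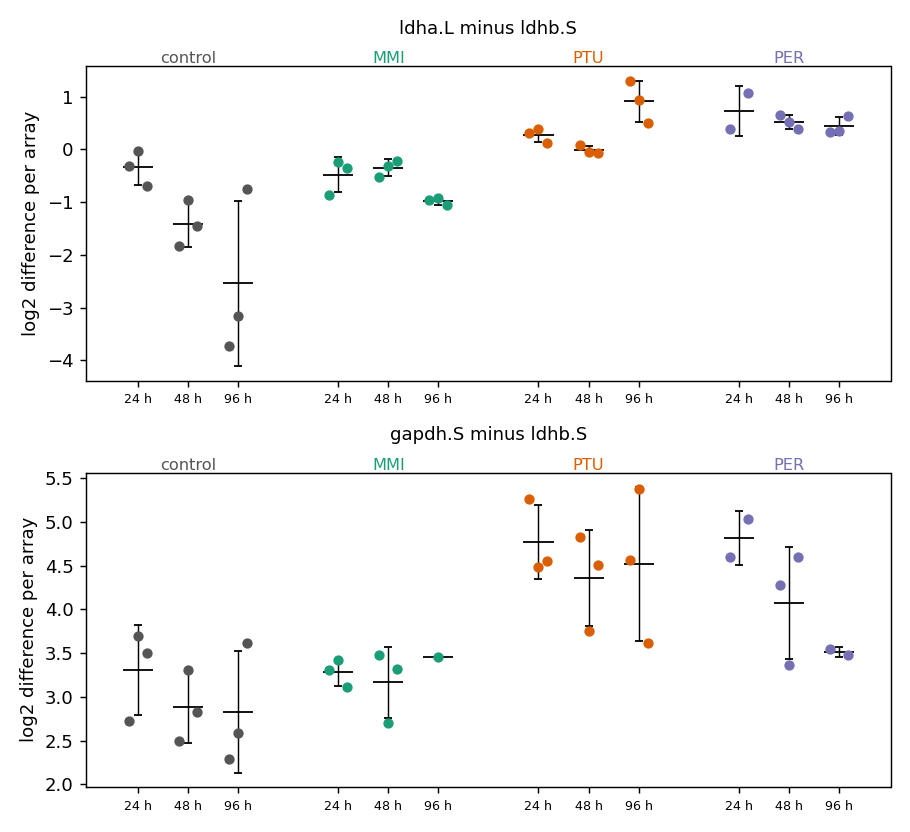
Log2 intensity of ldha.L minus ldhb.S (upper panel) and of gapdh.S minus ldhb.S (lower panel) on each array, by treatment and exposure time, with the group mean (line) and SD (bar). In the upper panel the control means run from -0.34 at 24 h to -2.54 at 96 h, while PER stays between 0.44 and 0.73. Only changes between groups can be read, since levels of different probes are not comparable.

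After scaling, the glycolytic enzyme gapdh.S was higher on every PTU array than on any control array, and overlapped the controls with MMI and PER. With PER at 24 and 48 h that overlap came from the nearly identical pair alone. Control intensities were 41713, 36653 and 47301 at 24 h, 37177, 38928 and 44681 at 48 h, and 22686, 45146 and 39018 at 96 h. With PTU they were 113175, 59800 and 74986, then 84063, 51934 and 91206, then 65946, 88642 and 48929. These scaled values did not overlap, the lowest PTU value being 48929 and the highest control value 47301. The deposited values did overlap. There PTU 96 h replicate 3 had 41158.5 and PTU 24 h replicate 2 had 47710.5, below control 96 h replicate 3 at 48527.5. The difference from control was 0.94 (SE 0.45) at 24 h, 0.87 (SE 0.46) at 48 h and 0.94 (SE 0.45) at 96 h, and 0.92 (SE 0.26) on average, or 0.90 over 24 and 48 h alone. Without control 96 h replicate 1, the dimmest control for this gene too, the 96 h difference was 0.40 and the average 0.71. These PTU values chose the gene and carry no test. The spread among PTU arrays was wide, with an SD of 20951 about a mean of 75409 against 7252 about 39256 in controls.

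With MMI gapdh.S had intensities of 47026, 42363 and 40480 at 24 h and 39209, 40062 and 41505 at 48 h, close to the controls. The log2 differences were 0.05 (SE 0.46, 95% interval -0.89 to 0.99) at 24 h and 0.00 (SE 0.46) at 48 h. At 96 h only replicate 1 had a value, 43983, so no average over the times could be fitted. With PER the intensities were 41970 and 49864 at 24 h, 55103, 49676 and 41970 at 48 h, and 41475 and 46229 at 96 h, where replicate 1 was empty. Arrays overlapped the controls at each time, but at 24 and 48 h only through the nearly identical pair, both at 41970. The other PER arrays of those times lay above the highest control, 47301 at 24 h and 44681 at 48 h. The average difference was 0.26 (SE 0.28, 95% interval -0.33 to 0.84), or 0.33 without both copies of the shared array. Without control 96 h replicate 1 it was 0.04. The compounds were given at 1 concentration each, and these concentrations differ, so no test between compounds was made.

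The size of the gapdh.S difference with PTU depends on the scaling. It was 1.69 with arrays centred on the median of all probes and 0.21 with quantile normalization, under which a probe that ranks first or second on most arrays is given nearly the same value on each. Centring on that median also moved the PER average to 1.06 and the MMI difference at 24 h to 1.40. Reference genes were read on the same arrays. The 5 probes of rpl8.S, a ribosomal protein of the large subunit, had average differences of 0.19 to 0.79 with PTU and -0.94 to -0.14 with PER, and none was called. For odc1.L, ornithine decarboxylase, the averages were -0.35, -0.28 and -0.15 with MMI, PTU and PER. Relative to ldhb.S on the same array, gapdh.S was higher by 1.55 with PTU and 1.13 with PER over the 3 times, and by 0.13 with MMI over 24 and 48 h. With PER most of this came from ldhb.S, which averaged -0.89 against 0.26 for gapdh.S itself. With quantile normalization the PTU and PER values of this ratio were 0.24 and 0.41.

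Ordered by mean intensity, the 12 groups show how little separates neighbours. For ldha.L the order ran from PTU at 96 h (5456 ± 1374, SD, n = 3) and PER at 96 h (5073 ± 1147) down to controls at 48 h (1989 ± 213) and 96 h (964 ± 783), and only the last step, 1026, exceeded the larger SD of the pair. For ldhb.S it ran from controls at 48 h (5539 ± 1466) and MMI at 96 h (5371 ± 2001) down to PTU at 24 h (2863 ± 261) and PER at 24 h (1562 ± 153, n = 2), with the last step alone exceeding the SD. The 6 lowest ldhb.S groups were all of PTU or PER, and the 6 highest all of controls or MMI. That order depends on the scaling. With arrays centred on the median of all probes, ldhb.S with PTU differed from control by 0.64 at 24 h and 0.19 at 48 h. The PER means of 24 and 48 h each include an array of the nearly identical pair. For gapdh.S the 3 PTU groups came first, at 82654 ± 27501, 75734 ± 20919 and 67839 ± 19924, followed by PER at 48 h at 48916 ± 6599, and controls at 96 h came last at 35617 ± 11610. No step between neighbours exceeded the SD.

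A list of 48 glycolysis and lactate symbols matched 5 genes of the array, the 3 above with aldoc.L, the brain form of aldolase, and pkm.S, pyruvate kinase. Lists of 46 mitochondrial and 16 hypoxia symbols matched 0. Among the 5 glycolytic genes 0 of 4 tested were called with MMI on average and 0 of 5 with PER. With PTU 2 of 5 were called, ldha.L and gapdh.S, both higher, where 1.85% of all probes were called higher. Those PTU differences chose the set, so this count was fixed by the choice. Set beside 1.85% it cannot show an excess of glycolytic genes, and no such excess is read from it. The MMI and PER counts include ldha.L, and the PER count gapdh.S, and are not read as tests of them. The median differences of the glycolytic genes were 0.55, 0.92 and 0.50 with MMI, PTU and PER. They were -0.08, -0.18 and -0.20 over all probes tested and 0.23, 0.04 and 0.16 over the brighter probes, to which all 5 belong. The glycolytic medians include genes that chose the set, so their height is not read as a result.

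For pkm.S the pattern rested on 1 array. Control intensities were 15940, 17709 and 20772 at 24 h, 14350, 12508 and 22577 at 48 h, and -715, 12697 and 14351 at 96 h, the first of the last group being below background. At 96 h the exposed arrays ranged from 14944 to 29608, all above the controls. The differences were 3.12 (SE 1.09, adjusted p = 0.122) with MMI, 2.83 (SE 1.09, adjusted p = 0.247) with PTU and 3.16 (SE 1.09, adjusted p = 0.249) with PER, and without control 96 h replicate 1 they were 0.20, 0.03 and 0.34. With replicate 3 of those controls left out instead they were 4.26, 3.99 and 4.32 and passed (adjusted p = 0.0223, 0.0403 and 0.0341), and with replicate 2 left out they passed with MMI (4.28, adjusted p = 0.0279) and PER (4.31, adjusted p = 0.0357). At 24 and 48 h they lay between -0.04 and 0.65.

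For aldoc.L the values crossed the controls with time. Control intensities were 7059, 8896 and 13347 at 24 h, 11347, 4561 and 11074 at 48 h, and 2598, 11330 and 8764 at 96 h. With PTU at 24 h they were 6379, 3705 and 6535, below every control array, and with PER at 24 h 27116 and 14054, above every control array. The differences at 24 h were -0.81 (SE 0.60, adjusted p = 0.597) and 1.04 (SE 0.68, adjusted p = 0.682), and averaged over the times they were 0.30, -0.07 and 0.50 with MMI, PTU and PER (SE 0.35, 0.35 and 0.36). The PER value of 27116 belongs to the nearly identical pair of arrays, and without both copies the PER average was 0.15.

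Over the 12 group means ldha.L correlated with ldhb.S at -0.36 and with gapdh.S at 0.54, and ldhb.S with gapdh.S at -0.44, on points that share arrays and scaling. Among 51 other named probes above background on at least 18 arrays, the patterns closest to ldha.L were those of gap43.S (r = 0.91), pkm.S (r = 0.83) and atp1b3.S, a sodium pump subunit (r = 0.82). With the control group of 96 h left out these were 0.65, 0.09 and 0.59. Closest to ldhb.S were ncs1.L, a neuronal calcium sensor (r = 0.66), HMG-1 (r = 0.63) and fgf20.L, a fibroblast growth factor (r = 0.59). Closest to gapdh.S were the rpl8.S probes 81 and 273 (r = 0.69 and 0.67) and tubb4b.L, a beta tubulin (r = 0.67), and these correlations were 0.71, 0.76 and 0.62 without that control group.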

How the data were processed

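Gene expression in tadpole brain was measured on a 1-channel array with 32P-labelled cDNA, per the labels' protocols. The authors deposited linear intensity values, all whole numbers, for 35 arrays of 898 spots. How it was scanned, background-corrected or scaled is not stated in the labels or headers. The values are net of a background, since on every array 17.3% to 44.5% of the filled cells were 0 or negative. Another 677 cells were empty, for which no reason is given.

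Each probe's paired spots were averaged, and the average was left empty where either was empty. Negative probe averages gave each array's background SD (their root mean square). Arrays were scaled by their median over 18 probes above 2 background SDs on all arrays, negative values became 0, and log2 was computed after adding 67.5, an offset equal to the 5th percentile of all positive values. The number of arrays limits the precision.

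limma 3.58.1 in R 4.3.3 (lmFit, eBayes) was fitted to 12 group means over all 35 arrays, with Benjamini-Hochberg adjustment over all probes with at least 2 values in each group compared, and calls at an adjusted p under 0.05. Exposed groups share the control arrays. Brighter probes are those above background on at least 18 arrays. The folds given as bounds compare the bright group with the lowest signals above background on the dim arrays. The scripts were tested on simulated data. Groups came from the sample titles, and p-values measure the spread between RNA pools. The genes and lists were chosen with earlier results of these data known. Genes were named if they are members, belong to a list of glycolysis, mitochondrial, hypoxia or reference genes or of cell type markers, or are among the 3 probes closest to a member in pattern. The balances of 2 genes, and ldha.L and gapdh.S against control, for which tests had been planned, carry no p-value, since the control arrays entered the choice of these genes. Gene names come from the platform's probe table updated through RefSeq gene symbols. Alternatives were other scalings, offsets, filters, spots, fits, a replicate block and each array left out. Plots were made in Python 3.11.15 with matplotlib 3.10.9.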

Additional observations from a re-analysis of the deposited data

Results flagged for a closer look

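For ldha.L with PER every array lay below the control mean at 24 h and above it at 48 and 96 h, with log2 differences of -0.3042, 1.017 and 2.611. For PER the change of effect between 24 and 96 h was 2.92 (SE 0.82), and it is given without a test because the 96 h difference chose the gene. At 24 and 48 h 1 array each belongs to the nearly identical pair, and without both copies the differences were -0.07 and 1.45. The sign at 24 h depends on the processing and held in 12 of 15 settings. The 24 h difference was 0.87 with quantile normalization, 0.66 with arrays centred on the median of all probes and 0.075 with the second spot alone. Without control 24 h replicate 1 it was 0.007.

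For aldoc.L, the brain aldolase, every MMI array lay below the control mean at 24 h and above it at 48 and 96 h, with log2 differences of -0.5258, 0.5409 and 0.8863. The change of effect from 24 to 96 h was 1.41 (SE 0.86, adjusted p = 0.417, limma). With PTU every aldoc.L array lay below the control mean at 24 h and above it at 96 h, by -0.8053 and 0.5722, and the change was 1.38 (SE 0.85, adjusted p = 0.535, limma). Neither change passed the threshold over all probes.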

How the results depend on the processing

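Under 16 alternative settings, 325 of 354 values of tested differences kept their direction and their side of the threshold, 6 newly passed it and 23 changed sign. With 1 array left out in turn the numbers were 778 of 805, 7 and 20. Of the differences given with no test, 383 of 425 values moved by less than 1 SD between arrays under the settings and 955 of 980 without 1 array, and 15 and 18 changed sign. Counts of probes called stayed within 1.5 times the reported count in 186 of 288 and 569 of 665 cases, and the balances moved by less than 1 SD in 57 of 60 and 175 of 175. No value that changed sign was past the threshold under the setting that turned it. The ldha.L averages with PTU and PER and the ldha.L to ldhb.S balance stayed above 0 under every setting run on them and without any 1 array. The ldhb.S average with PER stayed below 0 under all of them, and that with PTU under all but the median of all probes. The PTU average of ldha.L and its PER difference at 96 h chose the gene, so their steadiness is no support. Settings that only rescale whole arrays cancel from the balances apart from the offset, so steadiness under those was fixed in advance. Control arrays are the least precise, and differences of ldha.L at 96 h rest on 3 control arrays that were all below the background limit. The cause of each change listed here was not tested, except where fewer probes or arrays enter by construction. Replicate numbers did not pair arrays: over 187 pairs of equally numbered arrays in different groups, deviations from the group means correlated at 0.009 on average, and 34.8% of pairs were above 0.1. The replicate block changed no call of a member.

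In what follows, calls are counts of probes at an adjusted p under 0.05 (limma) for each compound against control on average or at 1 time, over time (96 h against 24 h) or for the effect over time (effect at 96 h minus effect at 24 h), and the values given are those that changed sign, crossed the threshold or moved past those limits. The counts as reported were 6, 18 and 7 for MMI, PTU and PER on average, 4, 7 and 0 at 24 h, 0, 0 and 0 at 48 h, 21, 5 and 6 at 96 h, 24 for controls over time, 1, 6 and 0 for the compounds over time and 13, 2 and 1 for the effects over time.

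With no scaling of the deposited values, probes called numbered 1 for MMI at 48 h, MMI at 96 h and PTU effect over time, 0 for MMI over time and PTU over time and 2 for MMI effect over time. On the log2 scale the differences were 0.025 for aldoc.L with PTU on average, 0.091 for ldhb.S with MMI at 48 h, 0.99 for ldha.L with MMI at 96 h, -0.58 for ldhb.S with MMI at 96 h, -0.035 for ldha.L with PTU at 24 h and 1.00 for ldha.L with MMI effect over time. With quantile normalization, the calls came to 11 for PTU on average, 22 for PER on average, 0 for MMI at 24 h, PTU at 24 h and PTU over time, 1 for PER at 24 h, MMI effect over time and PTU effect over time, 10 for controls over time and 2 for MMI over time. The same setting gave log2 differences of 0.13 for ldhb.S with MMI on average, 2.02 for ldha.L with PTU on average, 0.21 for gapdh.S with PTU on average, 0.31 for aldoc.L with PTU on average, 1.82 for ldha.L with PER on average, 1.06 for ldha.L with MMI at 24 h, -0.27 for ldhb.S with MMI at 96 h, 1.04 for ldha.L with PTU at 24 h, 0.33 for ldhb.S with PTU at 24 h, -0.077 for gapdh.S with PTU at 24 h, 1.58 for ldha.L with PTU at 48 h, 0.00065 for ldhb.S with PTU at 48 h, 0.18 for gapdh.S with PTU at 48 h, 3.46 for ldha.L with PTU at 96 h, 0.87 for ldha.L with PER at 24 h, -0.21 for gapdh.S with PER at 24 h, 0.66 for ldha.L with MMI effect over time, 0.24 for gapdh.S minus ldhb.S for PTU and 0.41 for gapdh.S minus ldhb.S for PER. With arrays centred on the median of all probes, the number of probes called was 13 for PER on average, 0 for MMI at 24 h, PTU at 24 h, PTU over time and PTU effect over time, 1 for PTU at 96 h and MMI effect over time and 2 for controls over time. Differences of single genes were 0.65 for ldhb.S with MMI on average, 1.92 for ldha.L with PTU on average, 0.13 for ldhb.S with PTU on average, 1.69 for gapdh.S with PTU on average, 0.70 for aldoc.L with PTU on average, 1.82 for ldha.L with PER on average, 1.06 for gapdh.S with PER on average, 1.26 for ldha.L with MMI at 24 h, 1.40 for gapdh.S with MMI at 24 h, 0.12 for ldhb.S with MMI at 48 h, 1.25 for ldha.L with PTU at 24 h, 0.64 for ldhb.S with PTU at 24 h, 2.13 for gapdh.S with PTU at 24 h, 1.58 for ldha.L with PTU at 48 h, 0.19 for ldhb.S with PTU at 48 h, 1.68 for gapdh.S with PTU at 48 h, 0.66 for ldha.L with PER at 24 h, 1.13 for gapdh.S with PER at 24 h, 3.51 for ldha.L with PER at 96 h, 0.61 for ldhb.S with PER at 96 h, 1.48 for gapdh.S with PER at 96 h, 0.67 for ldha.L with MMI effect over time and 1.68 for ldha.L with PTU effect over time. With the members left out of the scaling, the log2 differences were -0.024 for ldhb.S with MMI at 24 h, -0.052 for gapdh.S with MMI at 24 h and -0.021 for gapdh.S with MMI at 48 h. With 0.5 times the offset, probes called numbered 2 for PTU at 24 h and MMI over time and 1 for PTU effect over time. With the offset doubled, the calls came to 11 for PER on average and 2 for PER at 24 h. With values below 0 left out, the number of probes called was 2 for MMI on average, 31 for PER on average, 12 for MMI at 96 h and PTU at 96 h, 14 for PTU at 24 h, 3 for PTU at 48 h, 9 for PER at 24 h, 1 for PER at 48 h, 19 for PER at 96 h and 10 for PTU over time. Log2 differences came to -0.63 for ldhb.S with PTU on average (adjusted p = 0.0354), -0.89 for ldhb.S with PER on average (adjusted p = 0.0068) and 0.55 for pkm.S with PER on average (adjusted p = 0.0499). With only probes above background on at least 9 arrays, calls were 16 for PER on average, 2 for MMI at 24 h, 1 for MMI at 48 h and PER at 48 h, 7 for PTU at 48 h, 12 for PTU at 96 h and PER at 96 h, 3 for PER at 24 h, 14 for PTU over time, 27 for MMI effect over time, 5 for PTU effect over time and 4 for PER effect over time. On the log2 scale the differences were -0.89 for ldhb.S with PER on average (adjusted p = 0.011), 3.12 for pkm.S with MMI at 96 h (adjusted p = 0.0466) and -2.97 for pkm.S with controls over time (adjusted p = 0.0487).

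With the first spot alone, probes called numbered 3 for MMI on average, 4 for PTU on average and 0 for MMI at 24 h, PTU at 24 h, MMI over time, PTU over time and PTU effect over time. The same setting gave log2 differences of 0.0041 for ldhb.S with MMI on average, -0.018 for gapdh.S with MMI at 48 h, -0.045 for ldha.L with PTU at 24 h, 0.065 for ldha.L with MMI over time and 2.54 for ldha.L with MMI effect over time. With the second spot alone, the calls came to 9 for PTU on average and MMI at 96 h, 11 for PER on average and PTU at 96 h, 2 for MMI at 24 h and PER effect over time, 1 for MMI at 48 h, PTU at 48 h, PER at 48 h and PTU effect over time, 0 for PTU at 24 h and MMI over time and 7 for MMI effect over time. Differences of single genes were 0.25 for ldha.L with MMI at 24 h, -0.15 for ldhb.S with MMI at 24 h, -0.21 for gapdh.S with MMI at 24 h, -0.044 for gapdh.S with MMI at 48 h, -0.00092 for ldhb.S with MMI at 96 h, 0.075 for ldha.L with PER at 24 h and 0.11 for ldhb.S with PER at 96 h. With each fit limited to the arrays it compares, the number of probes called was 0 for MMI on average, MMI at 96 h, PTU at 96 h, controls over time, PTU over time and MMI effect over time, 7 for PTU on average, 3 for PER on average, 1 for MMI at 24 h and PER at 96 h, 4 for PTU at 24 h and MMI over time and 2 for PER effect over time. With array weights, calls were 2 for MMI on average, 10 for PTU on average and PTU over time, 0 for MMI at 24 h and PTU at 24 h, 9 for MMI at 96 h, 3 for PTU at 96 h, 1 for PER at 48 h and 4 for controls over time. Among the genes the log2 differences were -0.010 for ldhb.S with MMI at 96 h. With the replicate block, probes called numbered 1 for MMI on average and 2 for MMI over time. Without both copies of the shared array, the calls came to 1 for PER on average and PTU effect over time and 2 for MMI over time. Over 24 and 48 h alone, the number of probes called was 0 for MMI on average, 8 for PTU on average and 3 for PER on average. Log2 differences came to 0.44 for ldha.L with PTU on average, -0.039 for pkm.S with PTU on average, 0.36 for ldha.L with PER on average and 1.01 for ldha.L minus ldhb.S for PTU. With 1 spot used alone where the other is empty, calls were 3 for MMI on average.

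Leaving out each of the 35 arrays in turn, probes called ranged from 0 to 10 for MMI on average, 10 to 28 for PTU on average, 2 to 12 for PER on average, 0 to 5 for MMI at 24 h, 0 to 1 for MMI at 48 h, 8 to 26 for MMI at 96 h, 0 to 9 for PTU at 24 h, 0 to 1 for PTU at 48 h, 2 to 21 for PTU at 96 h, 0 to 3 for PER at 24 h, 0 to 1 for PER at 48 h, 1 to 11 for PER at 96 h, 0 to 2 for MMI over time, 0 to 10 for PTU over time, 4 to 15 for MMI effect over time, 1 to 6 for PTU effect over time and 1 to 4 for PER effect over time. The log2 differences ranged from -0.20 to 0.068 for ldhb.S with MMI on average, -0.071 to 0.42 for aldoc.L with MMI on average, -0.046 to 1.37 for pkm.S with PTU on average, -0.39 to 0.072 for aldoc.L with PTU on average, -0.24 to 0.25 for ldha.L with MMI at 24 h, -0.21 to 0.37 for ldhb.S with MMI at 24 h, -0.071 to 0.20 for gapdh.S with MMI at 24 h, -0.11 to 0.094 for gapdh.S with MMI at 48 h, -0.35 to 0.30 for ldhb.S with MMI at 96 h, -0.098 to 0.40 for ldha.L with PTU at 24 h, -0.54 to 0.0071 for ldha.L with PER at 24 h and -0.18 to 0.45 for gapdh.S with PER at 96 h.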

Other observations

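Of the 3 empty gapdh.S averages, 2 are MMI arrays and 1 is a PER array, all of 96 h. On the 32 arrays with a value this probe was among the 5 brightest on 31. The deposited values do not state why these cells are empty.

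The rpl8.S probes, which read 1 ribosomal protein gene 5 times, show how far probes of a gene differ on this array. Their average log2 differences with PTU were 0.36, 0.79, 0.52, 0.54 and 0.19, and with PER -0.94, -0.52, -0.48, -0.14 and -0.48. All 5 lay above 0 with PTU and below 0 with PER, the direction in which gapdh.S differed with PTU but not with PER. With MMI they were -0.11, 0.16, -0.07, 0.37 and 0.23.

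The dimmest array for ldha.L, control 96 h replicate 1, was also dim for some other brain transcripts. Yet it had 126 probes above background, against 109 and 79 on the other controls of 96 h. Its mean correlation within its group, 0.416, was the lowest of all arrays. On it gap43.S had 1084 units and was not above background, against 12639 to 20674 on the other control arrays, pkm.S had -715 and gapdh.S 22686, while ldhb.S, at 4582, was inside the control range.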
